A study of Mus musculus with 6 samples.

Results

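The genes described here encode the mitochondrial ribosomal proteins of the mouse, the protein subunits of the ribosome that works inside mitochondria. Members were chosen by name: every protein-coding row whose symbol begins with Mrpl or Mrps followed by a number was taken, which gave 78 of the 26699 rows in the count tables. Of these, 49 carry an Mrpl name, for the large subunit, and 29 an Mrps name, for the small subunit. The name is not always the place: the proteins of Mrps18a and Mrps30 sit in the large subunit of the mammalian mitoribosome, and that of Mrps36 is now regarded as a component of the 2-oxoglutarate dehydrogenase complex. The 78 genes lie on 17 chromosomes, so they form no cluster in the genome.

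The mitochondrial ribosome translates the few mRNAs that are made from mitochondrial DNA, all of which encode membrane subunits of the respiratory chain or of ATP synthase. Its ribosomal RNAs are transcribed inside the organelle, whereas all of its proteins are encoded in the nucleus, made in the cytosol and imported, so the particle is assembled from products of both genomes. Some of its proteins descend from bacterial ribosomal proteins and others exist only in mitochondria. Osteoclasts, the multinucleate cells that resorb bone, are rich in mitochondria, and their formation from macrophages is accompanied by an increase in mitochondrial mass and respiration.

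RNA-seq of polyadenylated RNA was available from primary bone marrow macrophages of 8-week-old mice. Per the labels' protocols, marrow cells were expanded in M-CSF, a growth factor for macrophages, at 10 ng/mL and then given 30 ng/mL M-CSF with 50 ng/mL RANKL, the cytokine that induces osteoclast formation, for 48 h. The control group (n = 3 libraries) had the genotype Slc11a2flox/flox, and the group called cKO here (n = 3 libraries) had the genotype LysmCre-Slc11a2flox/flox. Slc11a2 encodes DMT1, a carrier of ferrous iron. Both groups carried the floxed alleles and received the same cytokines, and the controls were littermates. LysmCre places Cre recombinase in the lysozyme M gene Lyz2 and acts in myeloid cells; the controls had no Cre, so an effect of Cre or of the altered Lyz2 locus cannot be told apart from an effect of Slc11a2 loss. The comparison asks how transcript levels differ between these genotypes while osteoclasts form.

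Library totals ran from 49720701 to 57797282 reads, so that 1 read was worth between 0.0173 and 0.0201 CPM, the unit of library-scaled counts used below. Slc11a2 itself stood at 119, 110 and 118 CPM in the control libraries and at 78.3, 82.8 and 87.4 CPM in the cKO libraries, and Lyz2 was lower in every cKO library as well, as the labels would have it; the counts are not resolved by exon, so they do not measure deletion. Macrophage markers summed to between 6805 and 7301 CPM in control and to between 6536 and 7068 CPM in cKO libraries, and osteoclast markers to between 11787 and 15309 against between 8535 and 12213 CPM, so both cell types named by the labels and the treatment were represented in every library. All 10 osteoclast markers had negative log2 fold changes of cKO over control, with a median of -0.39 (-23.6%). On all 6 libraries edgeR, DESeq2 and limma-voom called 0 of them. An unadjusted edgeR p below 0.05 was reached by 3, beside 8.79% of all tested genes lower at that level. Among the 14 alternative fits described below, Acp5, Ctsk, Mmp9, Dcstamp, Ocstamp and Nfatc1 were each called in 2. Oscar and Calcr were each called in 1, and Atp6v0d2 and Itgb3 in 0. Only for Acp5, the tartrate-resistant acid phosphatase, was every cKO library below every control library, at -0.56 ± 0.15 (standard error, edgeR adjusted p = 0.125). Of 8 neutrophil markers tested, edgeR called 4 higher in cKO cells (Ngp, Ltf, S100a8 and S100a9), beside 1.36% of all tested genes. Another 2 were negative and not called, Mpo at -0.82 ± 0.50 (standard error, edgeR adjusted p = 0.438) and Prtn3 at -1.48 ± 1.30 (0.624). The summed neutrophil markers went from between 21.3 and 27.0 to between 47.9 and 61.8 CPM. Ly6g lacked a row, and Elane, Camp, Retnlg, Cxcr2 and Prtn3 were below 1 CPM. Collagen-producing stromal markers summed to between 3418 and 3989 CPM in control and to between 3220 and 5164 CPM in cKO libraries. These sums were carried by Col1a1 and Col1a2, but all 7 stromal markers tested had positive log2 fold changes, with a median of 0.42 (33.7%). Of these edgeR called 0, and DESeq2 and limma-voom each called 1. At an unadjusted edgeR p below 0.05 there were 3, beside 8.38% of all tested genes higher at that level. Pdgfrb, a receptor of stromal cells, was higher in every cKO library, at 0.35 ± 0.09 (standard error, edgeR adjusted p = 0.0768). These values accompany the differences given below, and their part in them was not tested. In bulk RNA a smaller share of cells of a type and less RNA per cell cannot be told apart.

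Transcripts of the mitochondrial ribosomal proteins were slightly lower in cKO cells across nearly the whole family. All 78 genes passed the filter on low counts, with 52 to 2485 reads per gene and library. The log2 fold change of cKO over control was negative for 74 of them and positive for 4, with a median of -0.19, or -12.3%, and an interquartile range of -0.25 to -0.13. Over all 16843 genes tested the median was 0.00 and 49.6% were negative; among the 9454 genes above 3 log2 CPM 57.3% were negative. The summed level of the 78 genes was 1458, 1385 and 1468 CPM in the control libraries and 1244, 1267 and 1279 CPM in the cKO libraries, given here and below in the order of the replicate numbers. The 2 groups of sums did not overlap. Scaled by DESeq2 size factors 74 genes were negative as well, and with upper quartile scaling 70 were, with a median of -0.17.

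For most single genes this difference was too small to pass the test. With edgeR's quasi-likelihood test and Benjamini-Hochberg adjustment over all genes tested, at an adjusted p below 0.05, 2 of the 78 genes were called lower (2.56%) and 0 higher, against 1.06% of all tested genes called lower, 1.36% called higher and 2.42% called in either direction. The share called was thus near that of all genes. Unadjusted p-values were below 0.05 for 25 genes that were lower and for 1 that was higher, Mrpl22, where 8.79% of all tested genes were lower and 8.38% higher at that level. In 32 of the 78 genes every cKO library was below every control library, and in 1 every cKO library was above, beside 11.4% and 11.1% of all tested genes. Among genes above 3 log2 CPM, 1.75% were called lower, 13.7% were lower at an unadjusted p below 0.05 and 16.4% were separated downward. DESeq2 called 6 of the 78 genes lower, beside 3.19% of the genes it tested, and limma-voom with sample weights called 4, beside 2.1%; neither called any higher.

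**Figure D1:**
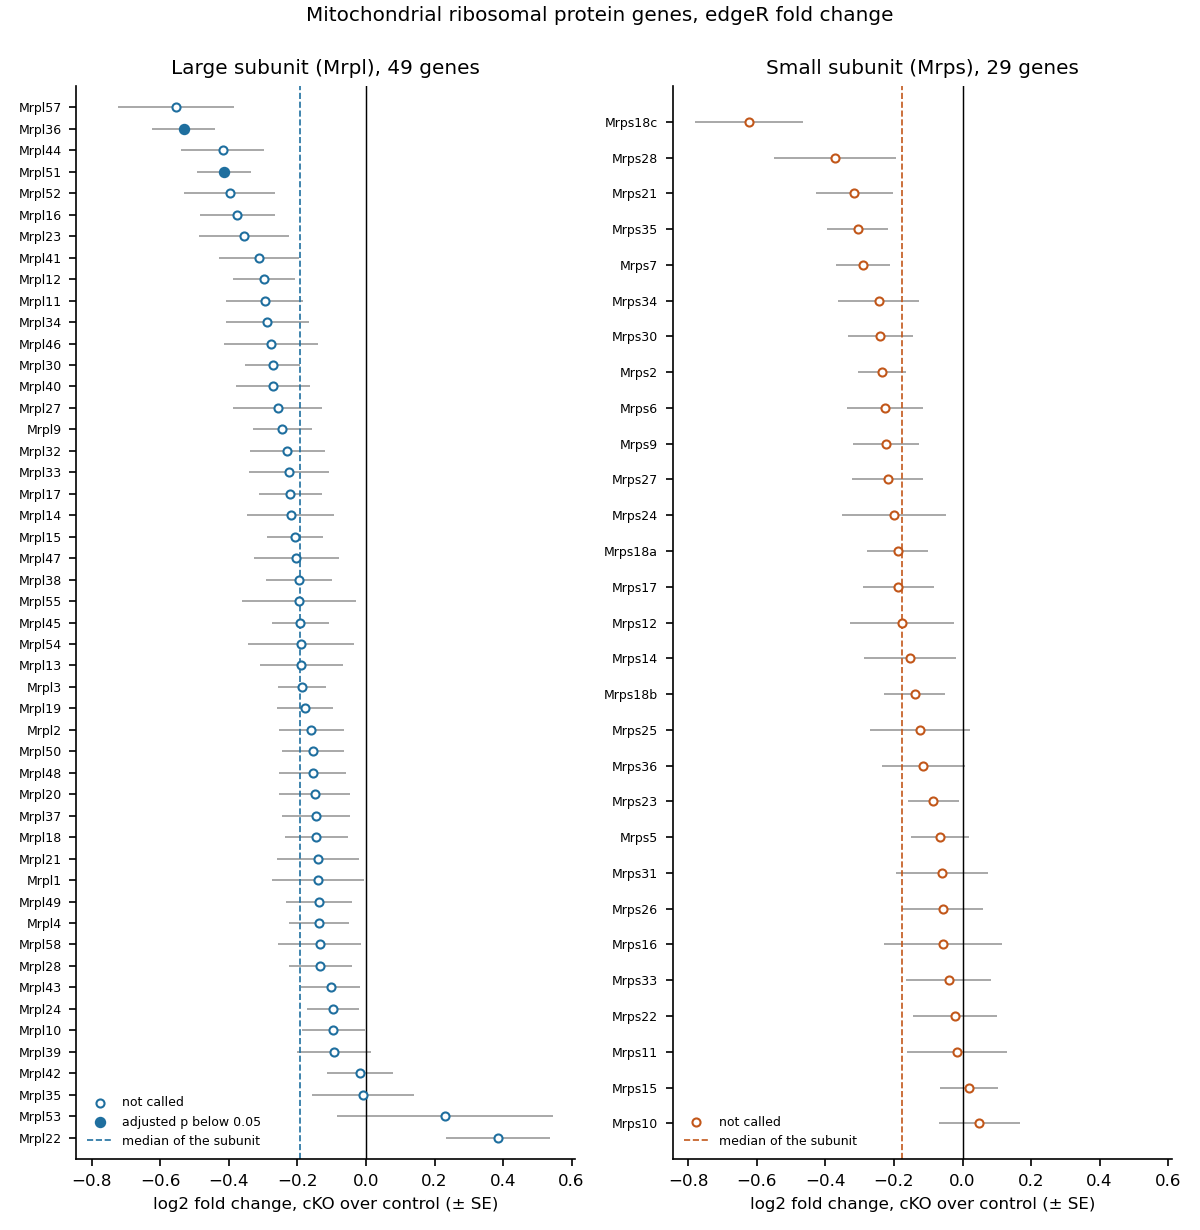
Log2 fold change of cKO over control for each of the 78 genes, with its standard error (horizontal bars), in order of size, for the 49 Mrpl genes (left) and the 29 Mrps genes (right). Filled points mark Mrpl36 and Mrpl51, the genes with an adjusted p below 0.05; dashed lines mark the medians of -0.19 and -0.18, and 74 of the 78 points lie to the left of 0.

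Mrpl36 and Mrpl51, both of the large subunit, were the genes called lower. Mrpl36 (ENSMUSG00000021607, chromosome 13, 73328513 to 73332178, plus strand) encodes the counterpart of bacterial L36, a very small protein of the large subunit. Its level was 21.5, 21.8 and 24.8 CPM in control and 15.4, 16.0 and 15.7 CPM in cKO libraries. The groups were well apart and the cKO libraries lay close together. The log2 fold change was -0.53 ± 0.09 (standard error, SE, edgeR adjusted p = 0.0129), so that the level fell by 30.8%. The call held in 12 of the 14 alternative fits, in which the adjusted p ran from 7.56e-05 to 0.102, and was lost without control replicate 3 (0.0823) and without cKO replicate 1 (0.102).

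Mrpl51 (ENSMUSG00000030335, chromosome 6, 125191801 to 125196269, plus strand) encodes a large-subunit protein that exists only in mitochondria. It stood at 24.7, 24.2 and 25.0 CPM in control and at 18.4, 18.8 and 18.3 CPM in cKO libraries. Within each genotype the libraries were nearly equal, and the groups did not overlap. The log2 fold change was -0.41 ± 0.08 (SE, edgeR adjusted p = 0.0230), which made it the called gene nearest the threshold. The call held in 10 of 14 alternative fits (adjusted p from 0.000773 to 0.127); it was lost without control replicate 1, 2 or 3 (0.0887, 0.0646 and 0.106) or without cKO replicate 1 (0.127). The row of Mrpl51 overlaps that of the microRNA gene Mir3098 on the same strand, whereas Mrpl36 overlaps no other row.

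The 4 genes next in order of p were all lower in every cKO library but did not pass the edgeR test. Mrps18c, just outside the threshold, encodes a counterpart of bacterial S18 in the small subunit and lies on chromosome 5 (ENSMUSG00000016833, 100798627 to 100804471, plus strand). It stood at 9.19, 7.81 and 8.00 CPM in control and at 4.70, 6.48 and 5.05 CPM in cKO libraries. These were the most negative values of the family, at a log2 fold change of -0.62 ± 0.16 (SE, edgeR adjusted p = 0.0621), with cKO replicate 2 closest to the controls. DESeq2 called it (adjusted p = 0.0123), as did limma-voom (0.0294) and edgeR without cKO replicate 2 (0.0438), while over all 14 alternatives the adjusted p ran from 0.0123 to 0.284. Its row overlaps that of the predicted gene Gm43511 on the same strand.

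Mrps7, Mrpl44 and Mrpl16, named after their values were seen, completed these 4. Mrps7, a protein of the small-subunit head, stood at 26.4, 25.6 and 26.6 CPM in control and at 20.4, 21.9 and 22.0 CPM in cKO libraries (log2 fold change -0.29 ± 0.08 SE, edgeR adjusted p = 0.0812). Mrpl44, which has a ribonuclease III-like fold, stood at 17.6, 15.5 and 21.0 CPM against 12.7, 14.0 and 13.7 CPM (-0.42 ± 0.12, edgeR adjusted p = 0.0982). Mrpl16, the counterpart of bacterial L16, stood at 13.5, 14.9 and 13.4 CPM against 11.4, 10.3 and 10.5 CPM (-0.38 ± 0.11, edgeR adjusted p = 0.0994). In each of the 3 the groups did not overlap. DESeq2 called all 3 (adjusted p = 0.0363, 0.0345 and 0.0418) and limma-voom Mrps7 alone (0.0441). Across the alternatives the adjusted p reached 0.310, 0.341 and 0.233.

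**Figure D2:**
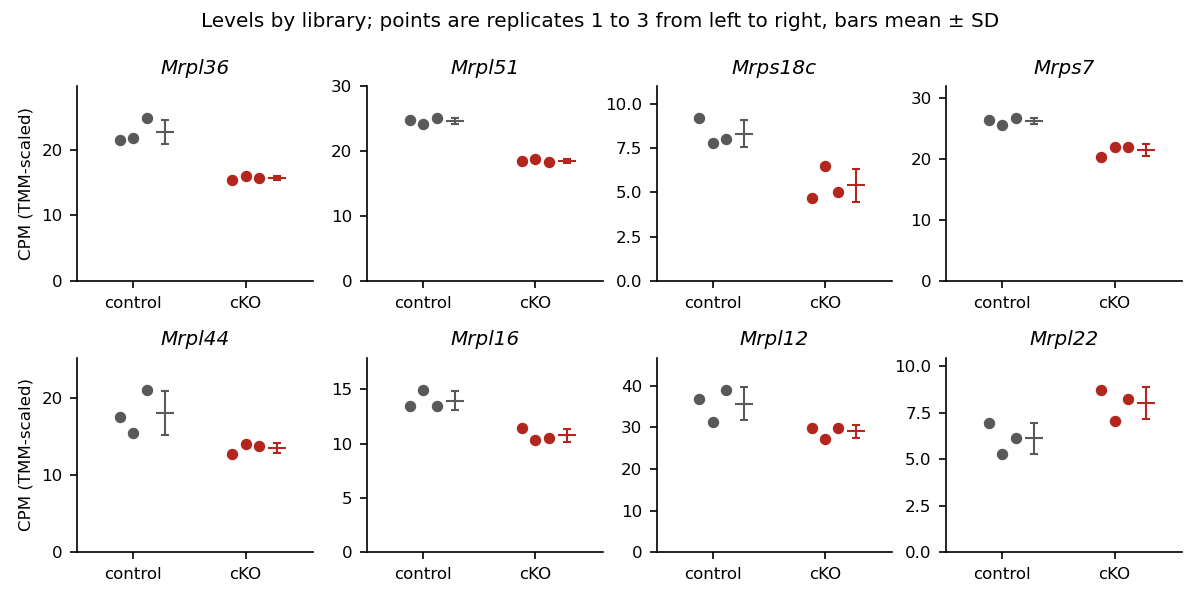
TMM-scaled CPM in every library for 8 genes, with the mean and SD of 3 libraries beside the points; grey is control and red is cKO, and every vertical axis starts at 0. In Mrpl36 through Mrpl12 all cKO points lie below all control points, and in Mrpl22 all lie above.

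Around the stalk of the large subunit, where translation factors bind, the 3 genes Mrpl10, Mrpl11 and Mrpl12 were examined. Mrpl12 encodes the L7/L12 protein, which recruits these factors. It stood at 36.8, 31.3 and 39.0 CPM in control and at 29.9, 27.3 and 29.9 CPM in cKO libraries, without overlap (log2 fold change -0.30 ± 0.09 SE, edgeR adjusted p = 0.116). Mrpl11, at the base of the stalk, gave 12.9, 12.6 and 12.4 CPM against 9.86, 11.3 and 9.68 CPM, also without overlap (-0.30 ± 0.11, adjusted p = 0.204). Mrpl10, which anchors the stalk, overlapped between genotypes at 35.5, 29.6 and 32.2 against 28.3, 29.3 and 33.5 CPM (-0.10 ± 0.09, adjusted p = 0.649). Mrpl10, Mrpl11 and the tunnel genes other than Mrpl22 were chosen after their values were seen.

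Around the exit of the tunnel through which the new peptide leaves, Mrpl22 alone was positive among the genes examined. Mrpl22 was the gene with the highest fold change of the family, at 6.98, 5.28 and 6.14 CPM in control and 8.73, 7.07 and 8.24 CPM in cKO libraries. The groups were separated, but by a narrow margin between control replicate 1 and cKO replicate 2. The log2 fold change was 0.39 ± 0.15 (SE, edgeR adjusted p = 0.221), and no alternative called it (adjusted p from 0.0999 to 0.523). Its neighbours at the tunnel exit had negative values: -0.35 ± 0.13 for Mrpl23, -0.22 ± 0.09 for Mrpl17, -0.20 ± 0.12 for Mrpl47 and -0.10 ± 0.08 for Mrpl24. Mrpl45, the protein that tethers the mitoribosome to the inner membrane, was at 29.7, 31.0 and 32.2 CPM in control and 29.5, 24.9 and 27.0 CPM in cKO libraries (-0.19 ± 0.08, adjusted p = 0.264). None of these genes passed the test.

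Among the other large-subunit genes Mrpl57, which exists only in mitochondria, had the lowest fold change of all Mrpl genes, at 7.82, 5.75 and 7.55 CPM in control and 4.76, 5.40 and 4.20 CPM in cKO libraries. The groups did not overlap, but control replicate 2 lay close to cKO replicate 2 (log2 fold change -0.55 ± 0.17 SE, edgeR adjusted p = 0.118). Mrpl34, counterpart of bacterial L34, stood at 13.4, 11.4 and 14.0 CPM against 9.74, 10.9 and 11.2 CPM (-0.29 ± 0.12, adjusted p = 0.248). Mrpl33, counterpart of L33, stood at 12.7, 12.3 and 13.3 CPM against 10.1, 12.4 and 10.3 CPM, where cKO replicate 2 was level with the controls (-0.22 ± 0.12, adjusted p = 0.356). Mrpl58, a peptidyl-tRNA hydrolase that is also part of the large subunit and was named after its values were seen, differed little, with 9.74, 9.19 and 8.96 CPM against 7.90, 8.77 and 8.72 CPM (-0.14 ± 0.12, adjusted p = 0.623). Mrpl53, the gene with the fewest reads, was highly variable in control cells, at 0.999, 2.62 and 1.59 CPM, against 2.06, 1.92 and 2.14 CPM in cKO cells. Its positive value of 0.23 ± 0.31 (adjusted p = 0.760) became -0.04 without control replicate 1.

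Of the 29 genes with an Mrps name edgeR called 0, and DESeq2 and limma-voom each called 2, Mrps18c and Mrps7; 7 had an unadjusted edgeR p below 0.05. They include Mrps18a and Mrps30, whose proteins belong to the large subunit, and Mrps36, which is no longer counted as a ribosomal protein. The 3 paralogs of bacterial S18 differed in size: beside -0.62 for Mrps18c, Mrps18a stood at 23.9, 21.9 and 22.2 CPM in control and 18.7, 19.6 and 21.2 CPM in cKO libraries (log2 fold change -0.19 ± 0.09 SE, edgeR adjusted p = 0.299). Mrps18b stood at 22.3, 19.6 and 22.5 against 19.9, 19.4 and 19.3 CPM, where the genotypes overlapped (-0.14 ± 0.09, adjusted p = 0.466). The difference between the paralogs was not tested. Mrps21, counterpart of bacterial S21, stood at 18.1, 17.5 and 16.0 CPM against 15.3, 14.0 and 12.2 CPM (-0.32 ± 0.11, adjusted p = 0.170). Mrps30 stood at 20.8, 18.8 and 20.9 CPM against 15.8, 17.9 and 17.5 CPM (-0.24 ± 0.09, adjusted p = 0.222). In Mrps21 and Mrps30 the groups did not overlap. Mrps36 overlapped between genotypes, at 10.1, 11.5 and 10.7 against 10.3, 8.88 and 10.5 CPM (-0.12 ± 0.12, adjusted p = 0.684).

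Both Mrps genes with positive values were close to 0. Mrps10, a protein of the small-subunit head, stood at 15.1, 14.7 and 12.4 CPM in control and at 13.6, 13.7 and 16.3 CPM in cKO libraries (log2 fold change 0.05 ± 0.12 SE, edgeR adjusted p = 0.876). The genotypes overlapped, and the sign depended on replicate 3 of either genotype, being -0.03 without that of control and -0.04 without that of cKO. Mrps15, counterpart of bacterial S15 and named after its values were seen, stood at 0.02 ± 0.09. A further 8 genes had negative values that rounded to -0.06 or closer to 0, Mrpl35 and Mrpl42 of the large and Mrps11, Mrps16, Mrps22, Mrps26, Mrps31 and Mrps33 with an Mrps name.

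The 2 subunits, taken by name, differed from control by similar amounts. The median log2 fold change was -0.19 over the 49 Mrpl genes, of which 47 were negative, 22 separated downward and 18 lower at an unadjusted p below 0.05. It was -0.18 over the 29 Mrps genes, of which 27 were negative, 10 separated downward and 7 lower at that level. Of all tested genes 11.4% were separated downward and 8.79% were lower at that level. The difference of the medians, Mrpl minus Mrps, was -0.01. With Mrps18a and Mrps30 counted as large and Mrps36 left out it was -0.03. In single libraries the mean log2 CPM of the large subunit, relative to the control mean, was -0.00, -0.03 and 0.03 in control and -0.22, -0.19 and -0.19 in cKO libraries. For the small subunit these values were 0.05, -0.05 and 0.01 against -0.20, -0.14 and -0.16. Every cKO library was therefore below every control library for both subunits. The large-minus-small difference of these means was -0.05, 0.02 and 0.03 in control and -0.02, -0.04 and -0.02 in cKO libraries, which overlapped. Without control replicate 1 the difference of the medians was -0.09, the widest of the 14 alternatives.

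The genes were split by ancestry, a grouping assigned after the values were seen. The 46 genes with a counterpart among bacterial ribosomal proteins had a median log2 fold change of -0.20. The 30 classed as without one, which include Mrps36, Mrpl44 and Mrpl58, had a median of -0.16. Mrps18a and Mrps18b, extra copies of S18, were left out of both. Of the called genes, Mrpl36 has such a counterpart and Mrpl51 has none. Split by mean level into 3 groups of 26 genes, the medians were -0.20, -0.18 and -0.19 from the lowest to the highest group. The median standard error fell from 0.13 through 0.11 to 0.09, and unadjusted p-values below 0.05 numbered 7, 7 and 12. The size of the difference was thus similar at every level, and the better counted genes reached small p-values more often.

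Levels per length were read from the authors' FPKM, fragments per kilobase of exon scaled to library size. The family was of modest and uneven abundance: mean FPKM over the 6 libraries had a median of 5.62 and ran from 1.39 for Mrpl33 to 18.3 for Mrpl12. Mrpl12 was followed by Mrps21 at 18.2 and Mrpl34 at 16.8, and in each of these 3 the cKO libraries lay below the controls, for Mrpl12 at 20.1 ± 2.28 (SD, n = 3) in control against 16.5 ± 0.678 FPKM in cKO cells. At the other end Mrpl33 was followed by Mrps10 at 1.53 and Mrpl57 at 1.73. Neighbours in this order, such as Mrpl12 and Mrps21, did not differ beyond their spread. The length in FPKM is that of all annotated exons joined together, which for many of these genes exceeds any 1 transcript: its median over the 78 genes was 2395 bp, against 1302 bp for the principal transcript in GENCODE M21.

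With the principal transcript length the order changed, at a Spearman correlation of 0.70 over the 78 genes, which share the same counts in both measures. Mrpl42 then led at 36.7 CPM per kb, followed by Mrps21 at 31.8 and Mrpl24 at 29.9. Mrpl33 moved from rank 78 to rank 6, because the joined exons span 7364 bp and the principal transcript 478 bp. Mrpl57 was among the lowest under both lengths. The low FPKM of Mrpl33 and Mrps10 therefore depended on the length used, and so did the rank of Mrpl42, which was 39 by FPKM.

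**Figure D3:**
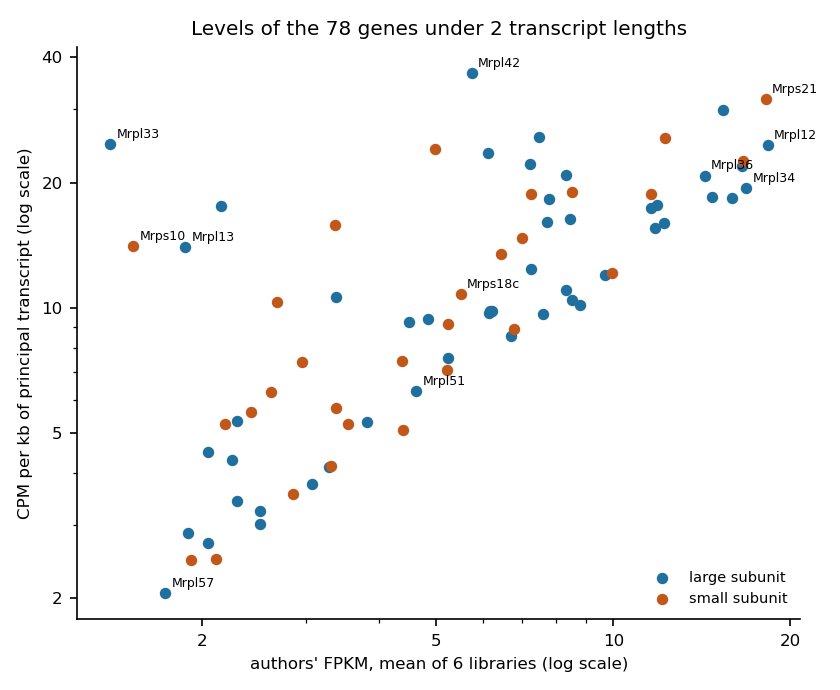
Mean FPKM of the 78 genes as deposited (horizontal, log scale) against CPM per kb of the principal transcript (vertical, log scale), both over 6 libraries; blue is the large and orange the small subunit. Mrpl33, Mrps10 and Mrpl13 lie far above the main band, and Mrps21 and Mrpl12 are near the top by both lengths.

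Transcript length moved with the fold change among other genes in these libraries. Among the 78 genes it hardly did, at a Spearman correlation of 0.12. The 78 genes were split by length into 3 groups of 26. In the shortest group, 607 to 1669 bp, the 26 genes had a median log2 fold change of -0.21 and 701 other genes above 3 log2 CPM in the same range -0.12. In the middle group, up to 3292 bp, the medians were -0.15 and -0.08, and in the longest group, up to 8628 bp, -0.19 and -0.00. From the shortest to the longest group, 24, 25 and 25 of the 26 genes were negative. Among the other genes of the same lengths the shares negative were 76.6% of 701, 72.2% of 1942 and 50.5% of 6744. When the trend with length was removed in every library, the median of the 78 genes became -0.12, with 64 negative beside 43.0% of all tested genes, and 2 genes were called lower, beside 0.647% of all tested genes: Mrpl36 (edgeR adjusted p = 0.0483) and Mrpl51 (0.0288). In that fit 4774 of the 9454 genes above 3 log2 CPM were negative and 99 were called lower. The subunit medians became -0.13 for the large and -0.10 for the small subunit. The trend removed was fitted over all genes above 3 log2 CPM, and the 78 genes hardly showed it among themselves. How far length accounts for their common difference was not tested. Why length and fold change were related in other genes was not tested either.

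**Figure D4:**
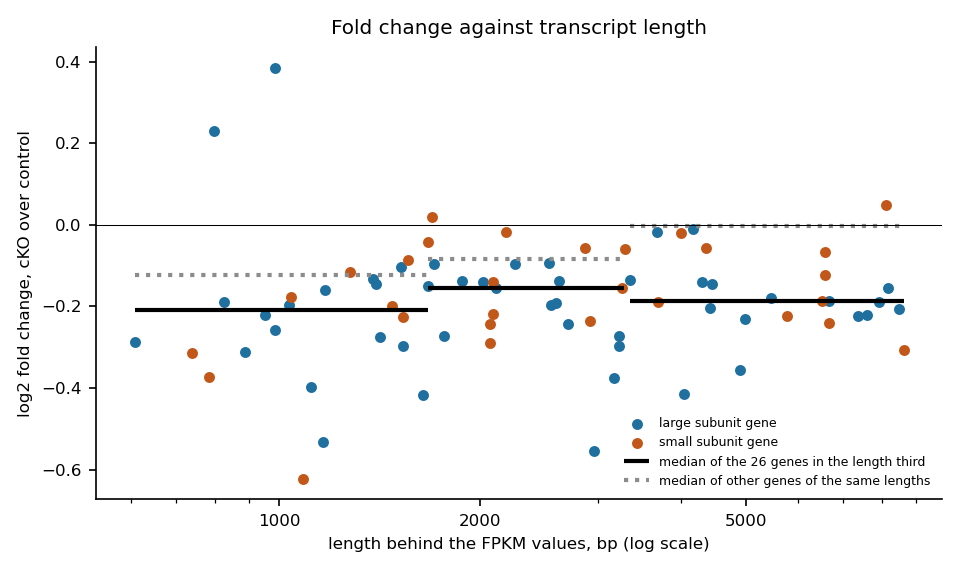
Log2 fold change of each of the 78 genes against the exon length behind its FPKM value (log scale); blue is the large and orange the small subunit. Black lines are medians of the 26 genes in each of 3 length groups (-0.21, -0.15 and -0.19), and dotted lines those of other expressed genes of the same lengths (-0.12, -0.08 and -0.00).

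The genes that build and serve the mitoribosome had smaller medians, and edgeR called none of them higher. Of all tested genes 1.06% were called lower and 8.79% were lower at an unadjusted p below 0.05. The 6 subunit or subunit-associated genes with other names (Dap3, Ptcd3, Aurkaip1, Chchd1, Gadd45gip1 and Oxa1l, the last of which inserts the new chains into the membrane) were all negative, with a median of -0.11 and 0 called (1 at an unadjusted p below 0.05; 0 by DESeq2 and limma-voom). The lowest was Chchd1 at -0.35 ± 0.13 (SE, edgeR adjusted p = 0.208). Of 27 assembly factors 24 were negative, with a median of -0.14 and 0 called (2 at an unadjusted p below 0.05; 1 by DESeq2 and 1 by limma-voom); the nearest to a call was Trub2, a pseudouridine synthase, at -0.42 ± 0.10 (adjusted p = 0.0540). Of 13 translation factors 11 were negative, with a median of -0.08 and 0 called (1 at an unadjusted p below 0.05; 0 by the other tools); the elongation factor Gfm1 stood at -0.21 ± 0.07 (adjusted p = 0.142). Of 20 genes that charge mitochondrial tRNAs 17 were negative, with a median of -0.09 and 0 called (3 at an unadjusted p below 0.05; 1 by DESeq2 and 0 by limma-voom), Rars2, the arginyl-tRNA synthetase, being at -0.32 ± 0.08 (adjusted p = 0.0705).

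Of 24 genes that replicate, transcribe or process the mitochondrial genome, 19 were negative, with a median of -0.13. Here edgeR called 1 lower (4.17%) and 0 higher, beside 1.06% of all tested genes called lower. The gene called was Hsd17b10, a subunit of mitochondrial ribonuclease P, at -0.33 ± 0.07 (edgeR adjusted p = 0.0385). It was called in 8 of 14 alternative fits. The 8 regulators tested, which include Yy1, Esrra and Gabpa, had a median of -0.02, with 0 called by any of the 3 tools, 0 at an unadjusted p below 0.05 and 0 separated.

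Next to these stand the mRNAs that the mitoribosome reads and the nuclear genes whose products join theirs. The 13 mRNAs encoded by mitochondrial DNA, which the mitoribosome translates, had a median of -0.03. Of these mRNAs 1 was called lower (7.69%), mt-Co3, a subunit of cytochrome c oxidase (-0.30 ± 0.06 SE, edgeR adjusted p = 0.0307, called in 8 of 14 alternative fits). Their mean relative to control was 0.05, -0.17 and -0.04 in the cKO libraries, within the range of the control libraries at -0.05, -0.07 and 0.12 except for cKO replicate 2. All 74 nuclear genes of the respiratory chain and ATP synthase, called the respiratory chain list here, were negative, with a median of -0.26. Of these 11 were called lower (14.9%), beside 1.06% of all tested genes. Atp5g1, a subunit of the ATP synthase ring, was at -0.66 ± 0.12 (adjusted p = 0.0183). DESeq2 called 30 and limma-voom 24 of the 74 lower, beside 3.19% and 2.1% of the genes they tested. With edgeR the number of genes called in this list ran from 0 without control replicate 1, control replicate 3 or cKO replicate 1 to 24 without cKO replicate 3. Of the genes for cytosolic ribosomal proteins 78 of 83 were negative, with a median of -0.16. Here 6 were called lower (7.23%), among them Rps19 at -0.39 ± 0.06 (adjusted p = 0.00565). DESeq2 called 12 and limma-voom 11 of these genes lower. Without single libraries the edgeR number ran from 1 without cKO replicate 1 to 12 without cKO replicate 2. With the trend on transcript length removed, described above, the calls numbered 0 for the mRNAs of mitochondrial DNA (median 0.09) and 0 for the genes that express that genome (-0.09). That fit gave 2 calls for the respiratory chain list (-0.17) and 2 for the cytosolic ribosomal proteins (-0.06), beside 0.647% of all tested genes called lower. All lists are from the same 6 libraries, and differences between them were not tested.

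The libraries did not rank alike in these lists. For the mitoribosome the means relative to control were 0.02, -0.04 and 0.02 in control and -0.21, -0.17 and -0.18 in cKO libraries, with 71, 67 and 66 of the 78 genes below their control mean. The cKO libraries were close to each other. The osteoclast markers were at -0.44, -0.58 and -0.04, so that cKO replicate 3 lay among the controls, which spread from -0.16 to 0.23. The cytosolic ribosomal proteins were at -0.21, -0.06 and -0.20, where cKO replicate 2 stood apart. Without cKO replicate 3 the median over the 78 genes was -0.19, and without cKO replicate 1 it was -0.15, the smallest after leaving out 1 library.

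**Figure D5:**
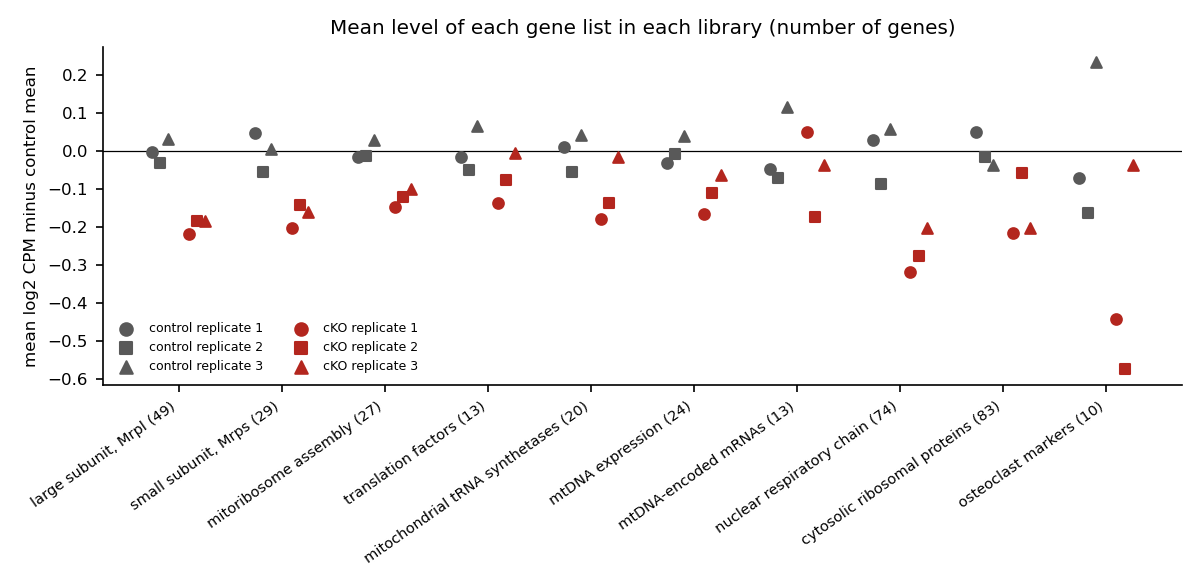
Mean log2 CPM of each gene list in each library, minus the mean of the 3 control libraries; the number of genes is in parentheses, grey is control, red is cKO, and the marker shape gives the replicate. Both mitoribosomal subunits have all 3 cKO libraries near -0.2, whereas the osteoclast markers range from -0.58 to -0.04 in cKO cells.

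The RNA partners of the small and large subunit, the mitochondrial 12S and 16S ribosomal RNAs, have rows named mt-Rnr1 and mt-Rnr2, chosen after their values were seen. RNA was selected for poly(A), so these rows give only what passed that selection. The row of mt-Rnr1 stood at 203, 187 and 208 CPM in control and at 173, 141 and 165 CPM in cKO libraries, without overlap (log2 fold change -0.32 ± 0.08 SE, edgeR adjusted p = 0.0526). That of mt-Rnr2 stood at 535, 505 and 579 against 480, 429 and 587 CPM, where cKO replicate 3 exceeded every control (-0.11 ± 0.11, adjusted p = 0.643).

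Promoters were compared because most of the genes were shifted in 1 direction while lying on many chromosomes. Of the 78 genes 69 matched a RefSeq promoter entry (GRCm38.p6), with 75 start sites in all, and the 250 bases before each start were searched on both strands for 3 motifs: that of the nuclear respiratory factor NRF1 (the half-site GCGCA with its repeat GCGC after a gap of 1 base), CCGGAAG, of the ETS family that includes GABPA, and AANATGGCG, of YY1. These factors are known to act at many nuclear genes for mitochondrial proteins. Of the 75 promoters 13.3% held the NRF1 motif, beside 7.36% of the promoters of all tested genes and 3.74% of all promoters in the table. The ETS motif was in 24.0% (12.4% and 6.91%), and the YY1 motif in 2.67% (1.95% and 1.12%). Median GC content was 58.4% in these promoters and 52.4% in all promoters, and it was not computed for those of tested genes. By gene, the NRF1 motif was found in 9 of 43 large-subunit and 1 of 26 small-subunit genes. Genes with the NRF1 motif had a median log2 fold change of -0.26 (10 genes), and those without -0.16 (59 genes); for the ETS motif the medians were -0.17 (18 genes) and -0.19 (51 genes). These are descriptions of letters in a window: a match is no evidence that a factor binds there, and no test was made.

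Shown are the 250 bases before the RefSeq start, 5′ to 3′ on the strand of the gene, for 2 called genes, Mrps18c, Mrpl12 and Mrpl22. The last 2 are the stalk and tunnel genes, and the set spans the fold changes from the lowest to the highest. Each gene shown holds a match, but 29 of the 69 genes with an entry (42.0%) hold any of the 3 motifs. Among tested genes with an entry the share was 23.4%. Capitals mark a motif match on either strand: YY1 in Mrpl36 (chr13:73330759-73331008, plus strand), ETS in Mrpl51 (chr6:125191950-125192199, plus), in Mrps18c (chr5:100798509-100798758, plus) and in Mrpl22 (chr11:58171414-58171663, plus), and NRF1 in Mrpl12 (chr11:120484387-120484636, plus). The match begins 31, 90, 156, 53 and 81 bases before the start in Mrpl36, Mrpl51, Mrps18c, Mrpl22 and Mrpl12. The windows of Mrpl36 and Mrpl51 lie inside the rows of their own genes in the count tables, which begin further upstream.
Mrpl36: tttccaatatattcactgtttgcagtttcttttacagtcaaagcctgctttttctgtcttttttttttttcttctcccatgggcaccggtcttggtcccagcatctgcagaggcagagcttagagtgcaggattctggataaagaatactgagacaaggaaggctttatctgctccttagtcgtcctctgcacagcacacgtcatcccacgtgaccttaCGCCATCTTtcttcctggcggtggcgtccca
Mrpl51: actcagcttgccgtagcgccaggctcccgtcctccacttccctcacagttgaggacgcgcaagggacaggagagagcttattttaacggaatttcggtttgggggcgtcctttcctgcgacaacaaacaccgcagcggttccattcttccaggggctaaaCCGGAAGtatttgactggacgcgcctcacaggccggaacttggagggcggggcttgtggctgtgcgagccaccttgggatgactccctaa
Mrps18c: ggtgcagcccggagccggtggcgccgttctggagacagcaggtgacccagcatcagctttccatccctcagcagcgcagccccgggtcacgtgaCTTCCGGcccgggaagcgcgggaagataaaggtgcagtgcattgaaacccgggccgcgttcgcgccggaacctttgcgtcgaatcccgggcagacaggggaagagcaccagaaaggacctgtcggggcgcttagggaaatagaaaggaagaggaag
Mrpl12: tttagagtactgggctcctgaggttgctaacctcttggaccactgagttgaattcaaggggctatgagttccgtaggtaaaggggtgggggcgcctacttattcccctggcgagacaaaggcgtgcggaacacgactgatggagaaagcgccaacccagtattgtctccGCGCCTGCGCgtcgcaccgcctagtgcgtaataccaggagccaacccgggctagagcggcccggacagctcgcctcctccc
Mrpl22: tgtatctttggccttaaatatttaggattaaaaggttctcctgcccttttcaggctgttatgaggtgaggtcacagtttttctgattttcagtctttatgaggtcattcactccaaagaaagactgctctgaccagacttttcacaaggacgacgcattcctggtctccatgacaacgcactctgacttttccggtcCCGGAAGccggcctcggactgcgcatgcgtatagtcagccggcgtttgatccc
The gene with the highest and the gene with the lowest fold change of the family, Mrpl22 and Mrps18c, thus held the same ETS letters, read on opposite strands, and the 2 called genes shared none of the 3 motifs.

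Reads of neighbouring or copied genes could enter these counts. Of the 78 rows 36 overlap another row, 11 on the same strand and 30 on the opposite strand, and a strand setting for the authors' counting was not given in the sources used here. The 42 genes without overlap had a median log2 fold change of -0.18 with 1 called, and the 36 with overlap -0.19 with 1 called, so the 2 sets differed little. The tables also hold 5 pseudogene rows of the family, Mrps36-ps1, Mrps36-ps2, Mrpl27-ps, Mrpl23-ps1 and Mrpl48-ps. These had at most 1.27 CPM in any library and none was called.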

How the data were processed

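Per the labels' protocols, poly(A) RNA was selected and libraries were made by a method that marks the strand. From the submitters' processing notes come cutadapt 1.9 and the build mm10; aligner, counting program, annotation and strand setting were not given in the sources used here. Each deposited file pairs unnormalized read counts with the authors' FPKM values, per the file headers. FPKM served for levels per length only: the implied length was within 2% of the joined GENCODE M21 exons for 98.8% of 8655 genes with at least 500 reads, once the authors' per-million total, 1.14 to 1.18 times the column total, was allowed for. No pair of libraries was close enough in its counts to be a repeat deposit. No source used here ties libraries to separate mice or cultures; the p-values therefore reflect library-to-library spread only, which may be technical.

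Counts were analysed with edgeR 4.0.16 in R 4.3.3: filterByExpr (minimum count 10, minimum total 15), TMM scaling, a robust quasi-likelihood test on genotype alone over all 16843 genes kept, and Benjamini-Hochberg adjustment, with calls at an adjusted p below 0.05. The script was tested on simulated data. CPM are TMM-scaled, standard errors are the log2 fold change divided by the square root of F, and lists are described by counts and medians only. Alternatives were DESeq2 1.42.0, limma 3.58.1 (voom with sample weights), other scalings and filters, removal of a lowess trend of log2 CPM on length (span 0.3), a replicate block and leaving out each library. The 78 genes and all lists were chosen with earlier results of these data known. Genes were named by a rule: the called genes, the 3 highest and 3 lowest fold changes and FPKM, those nearest the threshold, Mrpl12, the Mrps18 paralogs, Mrps30 and Mrps36, and up to 3 per related list by p; others are said to be chosen after their values were seen.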

Additional observations from a re-analysis of the deposited data

How the results depend on the processing

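With other scalings or filters the calls of Mrpl36 and Mrpl51 and the sign of the medians were kept. The number of the 78 genes called was 2, and it was 6 with DESeq2, 4 with limma-voom and between 0 and 3 when 1 library was left out; among genes that overlap no other row, an alternative chosen after seeing the data, it was 1. Over all genes 407 were called, and 874 with DESeq2, 704 with limma-voom and between 59 and 624 without 1 library. With the trend on length removed the medians were -0.12 for all 78 genes, -0.13 for the large and -0.10 for the small subunit. Without 1 library they ran from -0.21 to -0.15, from -0.21 to -0.17 and from -0.21 to -0.11, and the large-minus-small difference from -0.085 to 0.015. With the length trend removed 64 of the 78 genes were negative in place of 74; those that turned, to between 0.0067 and 0.070, were Mrps36 (0.0067), Mrpl10, Mrpl35, Mrpl42, Mrpl43, Mrps11, Mrps16, Mrps22, Mrps23 and Mrps33. Among the genes named by the rule, the sign also turned for Mrpl53 without control replicate 1 and for Mrps10 without replicate 3 of either genotype; without 1 library Mrpl53 ran from -0.041 to 0.65 and Mrps10 from -0.041 to 0.10. The cause of these changes was not tested.

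Over all tested genes, deviations of libraries with the same replicate number correlated at -0.02, -0.02 and -0.00. The osteoclast markers ranked alike by replicate number, at -0.07, -0.16 and 0.23 in control and -0.44, -0.58 and -0.04 in cKO libraries. The cytosolic ribosomal proteins did not, at 0.05, -0.01 and -0.04 against -0.21, -0.06 and -0.20. These values do not settle whether the numbers pair the libraries. With a replicate block 673 genes were called in all, and 2 of the 78, Mrpl36 and Mrpl51, with a median of -0.19.

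Values were tallied for 34 genes under 14 alternatives. These genes were the 15 of the family named by the rule, 17 more with an unadjusted edgeR p below 0.05, Slc11a2 and Lyz2. Genes of the related lists were not in this tally. Of the 476 values, 459 kept their direction and side of the threshold, 6 lost and 7 gained a call, and 4 turned sign. All 6 lost calls were those of Mrpl36, called in 12 of 14 alternatives, and Mrpl51, called in 10. Most of the 34 genes were not called by edgeR on all 6 libraries and could not lose a call.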
